A study of Homo sapiens with 50 samples.

Results

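The lysosomal genes followed here were 39 genes of the 18239 with a measured probe set. They were chosen by name as 19 hydrolases and their activators, 7 cathepsins, 9 membrane and cholesterol-handling proteins, 3 subunits of the proton pump, and TFEB. Where a gene had several probe sets, the one that was brightest on average across the arrays was used. One member, TMEM55B, was found in the annotation under its current symbol PIP4P1. The 39 members had 130 probe sets between them, and 29 members had several.

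Transcripts were measured in A549 cells, an established cell line from a human lung adenocarcinoma. RNA of 17 groups was put on 50 arrays of the Affymetrix type HG-U219. The treatment was compound 16 at 1 µM against its vehicle DMSO, in a study of small molecules that activate pyruvate kinase (PKM), the enzyme of the last step of glycolysis. Cells grown in RPMI were moved to basal medium (BME) with non-essential amino acids (NEAA), either lacking or containing serine, 24 h before either was added, and harvests followed at 0, 1.5, 6 and 24 h. The groups were compound 16 without serine, DMSO without serine, compound 16 with serine and DMSO with serine, each at 4 times, and the cells in RPMI before the change of medium, which received neither agent. All groups held 3 arrays except DMSO with serine at 1.5 h, which held 2. The 0 h groups carry both labels, compound 16 and DMSO, and were taken here as harvested at the addition.

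Lysosomes are acidic organelles that break down proteins, glycans, lipids and nucleic acids delivered by endocytosis and autophagy. Their soluble hydrolases are made in the endoplasmic reticulum and are mostly carried to the organelle by mannose 6-phosphate receptors, the lumen is acidified by the vacuolar proton pump (V-ATPase), and heavily glycosylated membrane proteins line the organelle. TFEB and its relatives, held in the cytoplasm by mTORC1 while amino acids are plentiful, enter the nucleus when they are scarce and bind the CLEAR element, which contains the letters CACGTG, in promoters of many lysosomal genes.

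The epithelial keratin genes KRT8, KRT18 and KRT7 had mean log2 signals of 13.57, 14.35 and 13.05. Of the 14 leukocyte, fibroblast and endothelial markers, 12 had group means that never passed 5.18, while LYZ ranged between 4.67 and 7.49 and CD14 between 5.25 and 6.82 over the groups. No pair of arrays held identical values. Separate cultures for the arrays of 1 group are not stated in the labels, so the tests measure the spread between arrays, which may be technical. In such cell populations, fewer cells of a type and less RNA per cell cannot be told apart.

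Among the 39 members, 36 were represented by probe sets with a mean signal at or above the median of all genes. The exceptions were IDUA, ARSA and TFEB. The span between a member's lowest and highest group mean had a median of 0.61 on the log2 scale, against 0.48 over all genes, and lay between 0.20 for LAMP1 and 1.40 for NEU1. The cells before the change of medium were the lowest group for 25 of the 39 members. The highest group was compound 16 without serine at 24 h for 9 members and DMSO without serine at 0 h for 6. Lowest and highest groups were not counted over all genes, so these counts are not shown to be particular to the members. The mean log2 signal of all members was 9.31 ± 0.03 in the cells before the change (SD, n = 3 arrays), and the 16 later groups had means between 9.47 and 9.66.

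**Figure D1:**
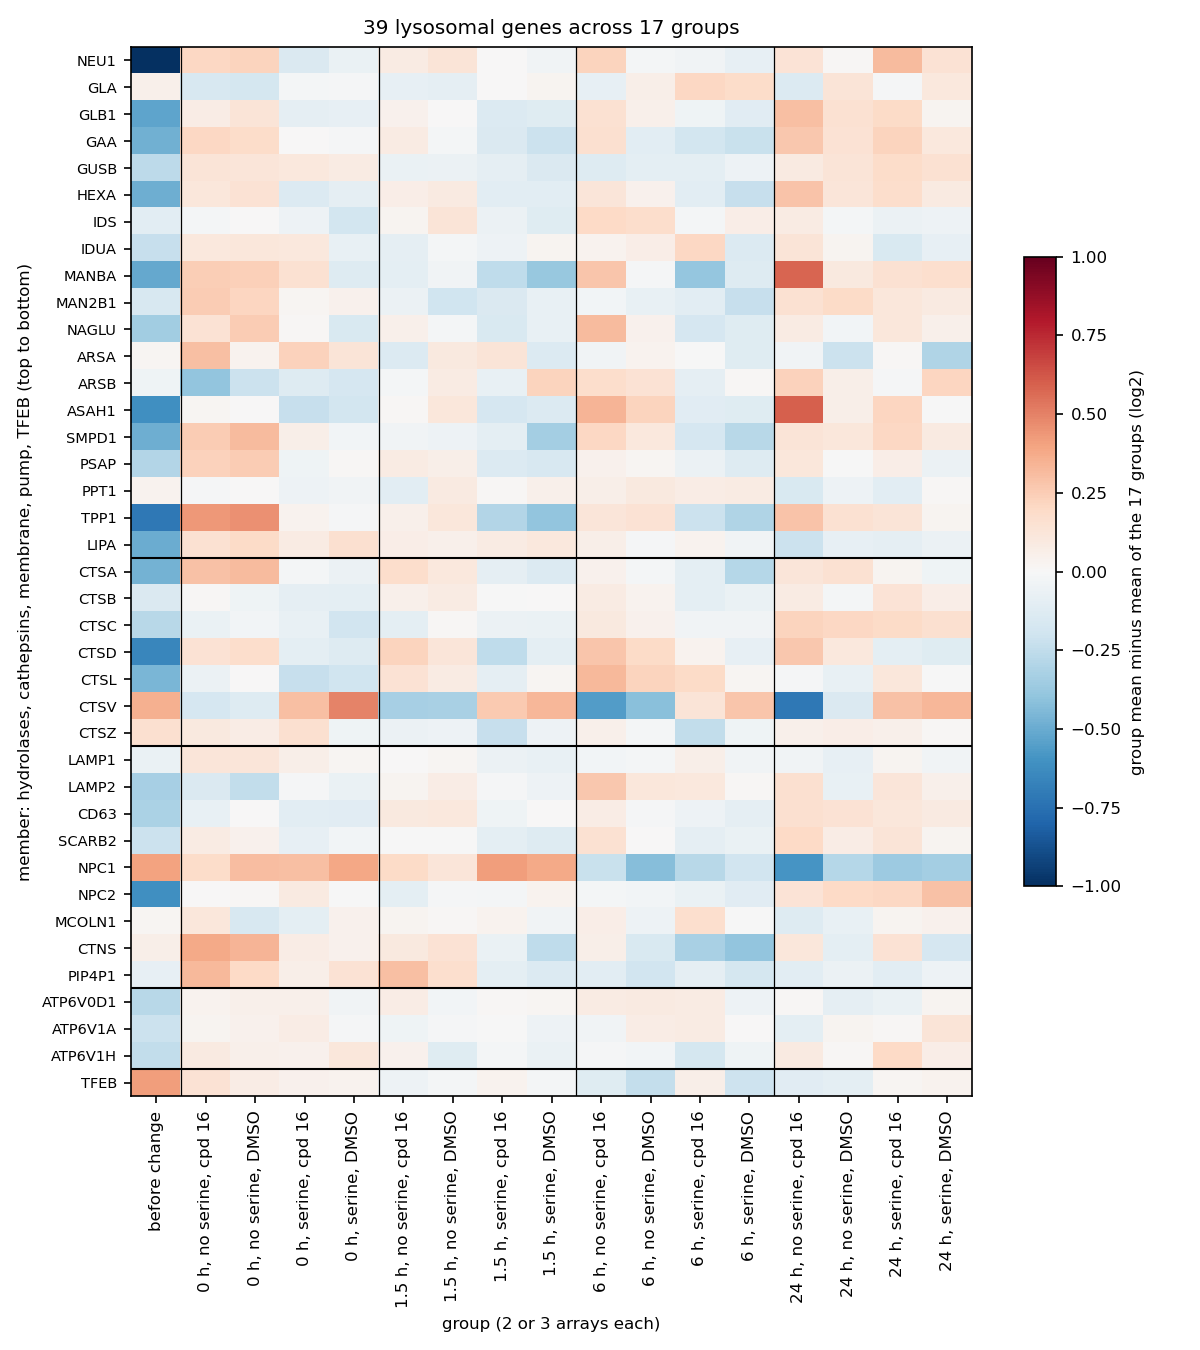
Heat map of each member's group mean minus its mean over the 17 groups (log2, colour scale from -1 to 1), with members in rows by class and groups in columns, cells before the change of medium first. The first column is blue for most members, and 25 of 39 had their lowest mean there (not counted over all genes), whereas CTSV, NPC1 and TFEB were above their own mean in it.

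The first comparison set the cells 24 h after the change of medium (DMSO, 0 h) against those before it. Lysosomal genes were broadly higher after the change. No group stayed in RPMI for those 24 h, so the change of medium and time in culture cannot be told apart. In medium without serine 26 of the 39 members rose and 2 fell, where 16.0% of all genes rose and 12.6% fell. In medium with serine 21 rose and 1 fell, where 12.3% of all genes rose and 9.46% fell. The median difference over the members was 0.33 without serine and 0.20 with serine, and over all genes 0.01 in each. Among genes at or above the median signal, 26.7% rose and 20.7% fell without serine, and 20.9% rose and 15.9% fell with serine. Both comparisons use the same 3 arrays of cells before the change. Of the members, 20 rose in both, CTNS, CTSC, LAMP1, MAN2B1, NAGLU and PIP4P1 passed the test without serine alone, and LAMP2 passed it with serine alone.

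Sialidase NEU1, which removes terminal sialic acids from glycans, had the largest difference in both media. Its log2 signals were 9.34, 9.41 and 9.47 without serine and 9.03, 9.12 and 9.20 with serine, against 7.93, 8.10 and 8.27 before the change. The ranges did not overlap. NEU1 was 2.48-fold higher without serine (log2 difference 1.31 ± 0.09, SE, limma adjusted p = 1.30e-14) and 2.03-fold higher with serine (1.02 ± 0.09, adjusted p = 1.67e-11).

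Tripeptidyl peptidase TPP1, which trims tripeptides from protein ends, followed. It had 10.97, 10.99 and 11.10 without serine and 10.51, 10.51 and 10.63 with serine, against 9.81, 9.83 and 9.90 before the change. The 3 groups were fully separate, with the medium lacking serine on top. TPP1 was 2.25-fold higher without serine (1.17 ± 0.06, adjusted p = 9.88e-19) and 1.62-fold higher with serine (0.70 ± 0.06, adjusted p = 3.23e-12). Its 8 other probe sets were also higher without serine, by 0.18 to 1.34.

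Of the enzymes that act on glycans, IDS, IDUA and ARSB did not pass in either medium (0.11, 0.35 and -0.17 without serine, and -0.07, 0.16 and -0.12 with serine). Beta-mannosidase MANBA had 7.44, 7.49 and 7.51 without serine and 6.92, 7.15 and 7.24 with serine, against 6.56, 6.71 and 6.91 before the change. All arrays after the change were above those before it, although the medium with serine came within 0.01 of them. MANBA rose by 0.75 ± 0.11 without and 0.38 ± 0.11 with serine. Acid alpha-glucosidase GAA rose by 0.67 ± 0.09 without and 0.47 ± 0.09 with serine, beta-galactosidase GLB1 by 0.66 ± 0.05 and 0.45 ± 0.05, and the hexosaminidase subunit HEXA by 0.63 ± 0.06 and 0.40 ± 0.06. Beta-glucuronidase GUSB rose by 0.38 ± 0.06 and 0.35 ± 0.06. Alpha-mannosidase MAN2B1 rose by 0.37 ± 0.11 without serine. GAA's other probe set, with a mean of 4.40, gave -0.05 without serine. NAGLU, which degrades heparan sulfate, rose by 0.60 ± 0.09 without serine, and gave 0.20 ± 0.09 with serine, which did not pass.

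Of the enzymes that act on lipids or lipid-linked groups, PPT1 and ARSA did not pass in either medium (-0.04 and 0.01 without serine, and -0.07 and 0.11 with serine). Acid ceramidase ASAH1 had 10.73, 10.80 and 10.96 without serine and 10.64, 10.64 and 10.65 with serine, against 10.15, 10.23 and 10.26 before the change, with no overlap. ASAH1 rose by 0.62 ± 0.08 without and 0.43 ± 0.08 with serine. Acid lipase LIPA, which frees cholesterol and fatty acids from esters, rose by 0.69 ± 0.06 and 0.65 ± 0.06. Acid sphingomyelinase SMPD1 rose by 0.81 ± 0.16 and 0.46 ± 0.16, and PSAP, the precursor of the saposin activators, by 0.55 ± 0.05 and 0.31 ± 0.05. Counted together, 13 of the 19 hydrolases and activators rose and 1 fell without serine, and 11 rose and 0 fell with serine. The one that fell was GLA, alpha-galactosidase A, by 0.23 ± 0.05 (adjusted p = 0.00104), and its difference with serine was -0.06 ± 0.05.

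Among the cathepsins, the aspartic protease CTSD had 9.18, 9.23 and 9.32 without serine and 8.90, 8.94 and 8.97 with serine, against 8.38, 8.43 and 8.44 before the change. The groups did not overlap. CTSD rose by 0.83 ± 0.12 without and 0.52 ± 0.12 with serine. CTSA, the protective protein that keeps NEU1 and GLB1 stable, rose by 0.79 ± 0.07 and 0.42 ± 0.07, and the cysteine protease CTSL by 0.46 ± 0.06 and 0.26 ± 0.06. CTSC, an activator of granule proteases, rose by 0.25 ± 0.06 without serine and gave 0.09 ± 0.06 with it.

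The cysteine proteases CTSV and CTSZ went the other way. CTSV, a close relative of CTSL, had 7.32, 7.37 and 7.76 without serine and 8.01, 8.08 and 8.23 with serine, against 7.78, 7.96 and 8.15 before the change. The arrays without serine lay below those before the change, and those with serine overlapped them. CTSV fell by 0.48 ± 0.11 without serine (adjusted p = 0.000670), and its difference with serine was 0.14. CTSZ fell by 0.20 ± 0.07 with serine and gave -0.09 without it.

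Of the 9 membrane and cholesterol-handling proteins 6 rose and 0 fell without serine, and 4 rose and 0 fell with serine. Their median difference was 0.26 and 0.19, against 0.60 and 0.35 for the hydrolases and 0.25 and 0.14 for the cathepsins, and no difference between the classes was tested. The luminal cholesterol carrier NPC2 had 11.83, 11.88 and 11.91 without serine and 11.75, 11.89 and 11.94 with serine, against 11.21, 11.27 and 11.27 before the change. It rose by 0.62 ± 0.07 and 0.61 ± 0.07, the largest rises in this class. Of its 3 other probe sets 1 was higher without serine and 2 with serine, with lowest differences of -0.06 and -0.15. Its membrane partner NPC1, which exports cholesterol from the lysosome, had 8.15, 8.29 and 8.32 without serine and 8.27, 8.35 and 8.38 with serine, against 8.29, 8.35 and 8.39 before the change, and the groups overlapped. The tetraspanin CD63 rose by 0.33 ± 0.05 and 0.20 ± 0.05, and SCARB2, the carrier of glucocerebrosidase, by 0.26 ± 0.05 and 0.19 ± 0.05. LAMP1, the main coat glycoprotein, rose by 0.19 ± 0.05 without serine and gave 0.09 ± 0.05 with it. CTNS, the cystine exporter, and PIP4P1, a lipid phosphatase of the lysosomal membrane, both rose by 0.28 without serine (SE 0.10 and 0.08), and LAMP2 rose by 0.27 ± 0.07 with serine. Only 3 of the 7 other CTNS probe sets were higher without serine, and 1 of the 3 other SCARB2 probe sets was higher in each medium. The calcium channel MCOLN1 gave -0.18 and 0.02, and neither passed.

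All 3 proton pump subunits passed the test in both media. ATP6V0D1 rose by 0.33 ± 0.07 without and 0.24 ± 0.07 with serine, and ATP6V1H by 0.30 ± 0.10 and 0.36 ± 0.10. ATP6V1A, which carries the catalytic sites, rose by 0.26 ± 0.06 and 0.20 ± 0.06 in its brightest probe set, but its 4 other probe sets were lower in both media, with differences between -0.73 and -0.09 without serine, and the mean of all its probe sets fell by 0.27 without and 0.17 with serine. The direction of ATP6V1A therefore depends on the probe set. Among the called members with several probe sets, some probe set went the other way for 7 of 20 without serine and 6 of 16 with serine. For SCARB2 with serine the mean of all probe sets gave -0.063, which did not pass.

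TFEB, the transcription factor of the list, had 5.66, 5.74 and 5.96 without serine and 5.44, 5.86 and 5.93 with serine, against 6.04, 6.16 and 6.19 before the change. The arrays after the change were all lower, by 0.34 ± 0.15 and 0.38 ± 0.15 on the log2 scale, but neither difference passed the test (adjusted p = 0.0896 and 0.0667). The cells before the change were TFEB's highest group of the 17.

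**Figure D2:**
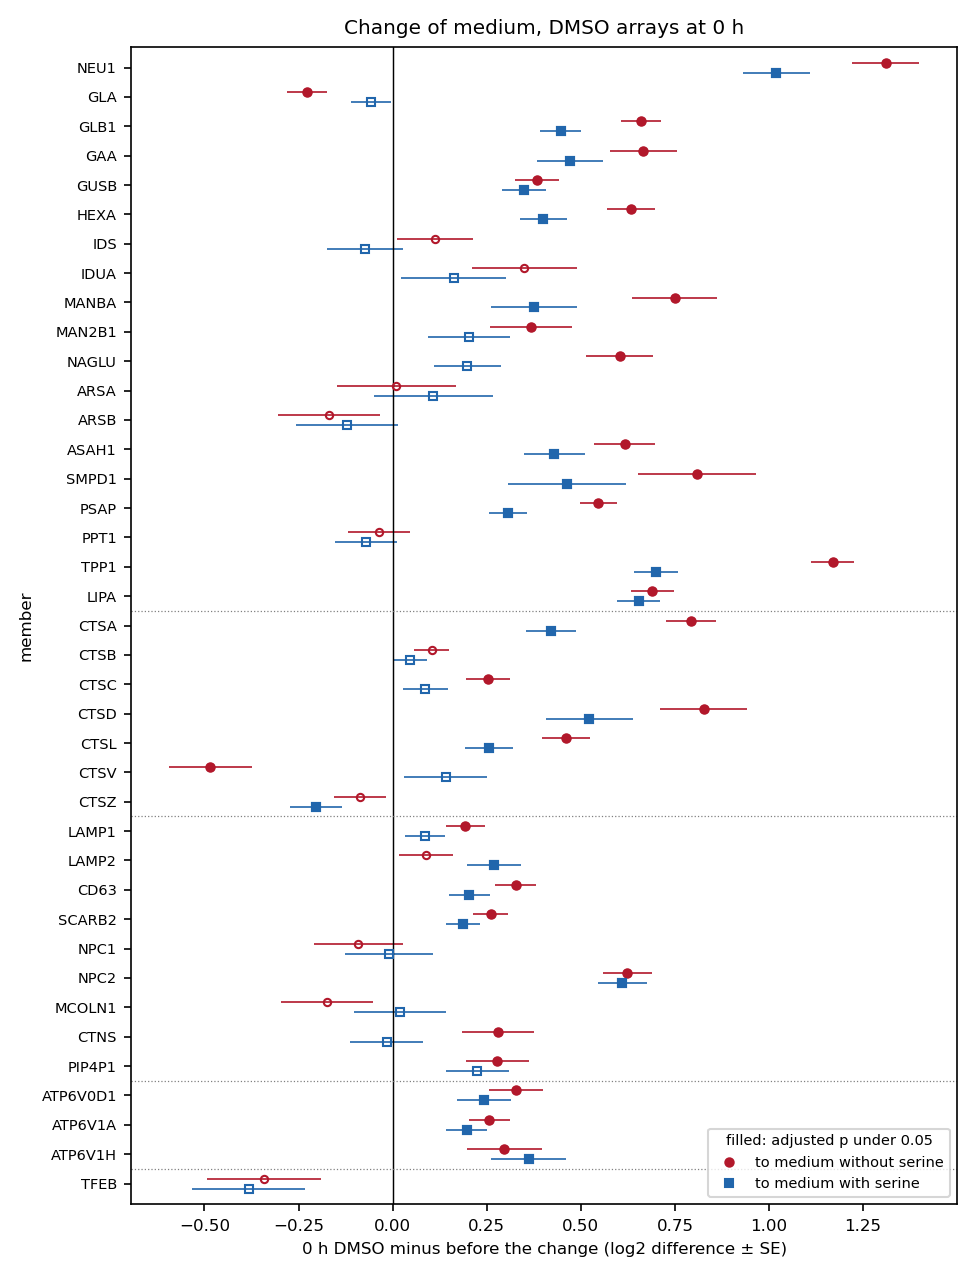
Log2 difference (± SE of the limma fit) of each member between 0 h DMSO arrays and cells before the change of medium, with circles for medium without serine, squares for medium with serine and filled symbols for an adjusted p under 0.05. NEU1 and TPP1 lie farthest right, at 1.31 and 1.17 without serine, while CTSV, GLA and CTSZ have filled symbols left of zero.

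No batch is named in the titles. Every group has title numbers of its own, and those of the cells before the change come first. An effect of that order and the change of medium cannot be told apart. The difference between the 3′ and 5′ actin control probe sets, a measure of RNA integrity, was 1.14 without serine and 1.22 with serine at 0 h (DMSO), against 1.37 before the change, and its part in these results was not tested. An alternative added after seeing the data used the 0 h arrays labelled compound 16 in place of those labelled DMSO. In it 28 members rose and 2 fell without serine, and 23 rose and 0 fell with serine. Of the 18239 genes, 5032 were called in that fit without serine (58.6% of them higher) and 4060 with serine (56.5% of them higher). With every array centred on its median, 22 members rose and 3 fell without serine, and 13 rose and 2 fell with serine. Of the 18239 genes, 5478 were called after centring without serine and 4088 with serine. The share of called genes that were higher moved to 40% and 35%, against 56% and 56.5% as deposited.

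The promoters of all members with a window were searched for CACGTG, the core of the CLEAR element, on both strands (the letters read the same on each). RefSeq windows of GRCh38.p14 with 250 bases before and 50 after the start site were found for 28 of the 39 members. CACGTG was present in 9 of them (32.1%), against 8.77% of the 27305 genes with a window. TCACGTGA, which contains it, was present in 5 (17.9%), against 1.18%. A gene was counted when any of its windows held the letters searched, with 43 windows for the 28 members and 35116 for the 27305 genes. The 27305 genes were not limited to those measured here. The CLEAR element is known from promoters of lysosomal genes, so a list of such genes chosen by name is no independent test of its letters. The 9 members were NEU1, GAA, ARSB, CTSA, CTSD, CD63, LAMP1, MCOLN1 and ATP6V0D1. After the change to medium without serine, 7 of these 9 rose and 0 fell, and 11 of the 19 members with a window lacking CACGTG rose and 2 fell. The median difference was 0.33 in the members with the letters and 0.28 in those without. With serine, 6 of 9 and 8 of 19 rose.

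The 250 bases before the start site are shown for 3 members that rose in both media (NEU1, GAA and CTSA), for LAMP1, which has the most copies, and for MCOLN1, which with ARSB is one of the 2 holders of the letters that did not pass without serine. Sequences are from RefSeq, read 5′ to 3′ on the gene's strand, with CACGTG in capitals.
NEU1, chr6:31862822-31863071, minus strand: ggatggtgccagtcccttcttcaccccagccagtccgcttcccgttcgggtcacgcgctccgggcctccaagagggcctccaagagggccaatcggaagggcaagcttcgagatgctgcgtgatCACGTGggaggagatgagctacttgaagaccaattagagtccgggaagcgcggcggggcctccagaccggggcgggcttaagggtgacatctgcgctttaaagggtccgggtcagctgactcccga
GAA, chr17:80101331-80101580, plus strand: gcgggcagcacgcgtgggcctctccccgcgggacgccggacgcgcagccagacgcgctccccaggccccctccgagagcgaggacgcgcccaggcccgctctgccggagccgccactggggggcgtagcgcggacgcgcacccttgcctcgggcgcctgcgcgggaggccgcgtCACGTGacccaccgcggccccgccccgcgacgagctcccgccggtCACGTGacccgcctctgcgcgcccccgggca
CTSA, chr20:45891085-45891334, plus strand: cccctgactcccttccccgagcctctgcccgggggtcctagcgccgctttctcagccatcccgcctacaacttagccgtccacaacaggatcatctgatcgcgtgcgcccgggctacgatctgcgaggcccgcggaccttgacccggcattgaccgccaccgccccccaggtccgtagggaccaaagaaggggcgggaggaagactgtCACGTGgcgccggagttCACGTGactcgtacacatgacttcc
LAMP1, chr13:113296989-113297238, plus strand: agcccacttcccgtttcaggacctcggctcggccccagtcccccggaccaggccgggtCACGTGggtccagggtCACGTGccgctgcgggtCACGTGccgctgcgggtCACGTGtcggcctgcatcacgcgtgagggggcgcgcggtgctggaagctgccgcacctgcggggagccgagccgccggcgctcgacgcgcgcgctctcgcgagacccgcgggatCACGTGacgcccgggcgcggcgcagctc
MCOLN1, chr19:7522374-7522623, plus strand: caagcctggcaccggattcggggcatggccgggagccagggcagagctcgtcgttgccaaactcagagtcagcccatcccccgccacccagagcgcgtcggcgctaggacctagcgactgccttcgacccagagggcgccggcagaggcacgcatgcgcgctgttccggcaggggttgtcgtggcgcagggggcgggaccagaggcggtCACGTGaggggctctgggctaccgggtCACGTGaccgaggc
NEU1, with 1.31 the largest rise, has the letters once, beginning 126 bases before the start. GAA has them at 76 and 31 bases and CTSA at 42 and 25 bases before it. LAMP1 has 6 in its window, of which 5 are within the bases shown and 1 crosses the start site, and it rose by 0.19 without serine, while its 0.09 with serine did not pass. MCOLN1 has 2, at 41 and 14 bases, and did not pass in either medium. TPP1, with the second largest rise, has none in its windows, which says only that these letters are not there.

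The second comparison set medium without serine against medium with serine in DMSO. At 0 h, 24 h after the change, 9 members rose and 1 fell for lack of serine (background 2.99% higher and 2.92% lower, 5.91% in all). At 1.5 h 3 rose and 1 fell (1.05% and 0.927%, 1.97% in all), and at 6 h 4 rose and 1 fell (1.75% and 1.43%, 3.18% in all). At 24 h 0 of 39 passed in limma (background 0.0877% higher and 0.0713% lower, 0.159% in all). An unadjusted p under 0.05 was found for 4, and the share of all genes with one was not computed. Among genes at or above the median signal, 5.2% rose and 5.07% fell at 0 h, and 1.89% and 1.75% at 1.5 h. Their shares were 3.17% and 2.72% at 6 h, and 0.143% and 0.121% at 24 h. The median difference over the members was 0.12, 0.09, 0.10 and 0.02 at the 4 times, against 0.01, 0.01, 0.00 and 0.00 over all genes. Hydrolases and cathepsins, 19 and 7 of the 39 members, made up all of the calls at 0 h and at 6 h. The smallest limma adjusted p among the 9 membrane proteins at 0 h was 0.0608, and no difference between the classes was tested.

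TPP1 passed at the first 3 times. At 1.5 h it had 10.62, 10.67 and 10.74 without serine, against 10.13 and 10.21 with serine. At 6 h the values were 10.61, 10.72 and 10.80, against 10.14, 10.30 and 10.34, and at 24 h 10.69, 10.72 and 10.73, against 10.54, 10.59 and 10.64. The groups were separate at each time, with a narrower gap at 24 h. The differences were 0.47 ± 0.06 at 0 h, 0.51 ± 0.06 at 1.5 h, 0.45 ± 0.06 at 6 h and 0.12 ± 0.06 at 24 h (adjusted p = 1.00e-06, 4.90e-06, 2.10e-06 and 0.596). Of TPP1's 8 other probe sets 6, 6 and 7 were higher at 0, 1.5 and 6 h, with lowest differences of -0.17, -0.19 and -0.14.

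CTSV was lower without serine at every time. At 1.5 h it had 7.19, 7.27 and 7.39 without serine, against 7.77 and 8.10 with serine. At 6 h the values were 7.09, 7.22 and 7.26, against 7.80, 7.91 and 7.94, and at 24 h 7.38, 7.45 and 7.56, against 7.90, 7.93 and 7.99. No time showed an overlap, 0 h included. CTSV fell by 0.63 ± 0.11 at 0 h, by 0.65 ± 0.12 at 1.5 h and by 0.69 ± 0.11 at 6 h, and the difference of -0.48 ± 0.11 at 24 h had an adjusted p of 0.0584. Its relative CTSL rose by 0.20 ± 0.06 at 0 h.

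The other members that passed at 0 h were NAGLU (0.41 ± 0.09), CTSA (0.37 ± 0.07), MANBA (0.37 ± 0.11), NEU1 (0.29 ± 0.09), PSAP (0.24 ± 0.05), HEXA (0.23 ± 0.06) and GLB1 (0.21 ± 0.05), all higher without serine. PSAP had 13.18, 13.20 and 13.21 without serine, against 12.92, 12.97 and 12.98 with serine. PSAP (0.21 ± 0.06) and CTNS (0.40 ± 0.11) passed at 1.5 h. At 6 h ASAH1 had 10.97, 11.04 and 11.15 without serine, against 10.63, 10.66 and 10.83 with serine. ASAH1 (0.35 ± 0.08), HEXA (0.27 ± 0.06) and CTSA (0.26 ± 0.07) rose at 6 h. GLA, CTSD, LAMP1 and TFEB gave -0.17 ± 0.05, 0.30 ± 0.12, 0.11 ± 0.05 and 0.04 ± 0.15 at 0 h, and none passed. Some probe set went the other way for 2 of 7, 2 of 4 and 2 of 5 called members with several, at 0, 1.5 and 6 h. These were TPP1 at each time, HEXA at 0 and 6 h and CTNS at 1.5 h. MANBA's other probe set gave 0.05 at 0 h.

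Under compound 16 the lack of serine gave more calls at 6 h than in DMSO, though the difference between these counts was not tested. The same held over all genes, of which 11.8% were called under compound 16, against 3.18% in DMSO. At 6 h 11 members rose and 2 fell (background 6.22% higher and 5.55% lower). Among genes at or above the median signal 11.3% rose and 10.4% fell. MANBA had 7.38, 7.47 and 7.69 without serine, against 6.52, 6.92 and 7.12 with serine. The groups were separate, with the widest spread among the arrays with serine. MANBA rose by 0.66 ± 0.11, NAGLU by 0.48 ± 0.09, ASAH1 by 0.45 ± 0.08, CTNS by 0.38 ± 0.10, GAA by 0.34 ± 0.09, TPP1 by 0.34 ± 0.06, CTSZ by 0.30 ± 0.07, SCARB2 by 0.24 ± 0.05, HEXA by 0.23 ± 0.06 and GLB1 by 0.19 ± 0.05. CTSB, the most studied cysteine cathepsin, rose by 0.18 ± 0.05. CTSV fell by 0.69 ± 0.11 and GLA by 0.29 ± 0.05. Of the 11 called members with several probe sets, 5 had some going the other way, among them SCARB2 with 2 of its 3 others. GAA was another, with -0.01 in its only other probe set. The 3′ minus 5′ actin difference was 1.20 without serine, against 1.01 with serine, under compound 16 at 6 h, and its part in these results was not tested.

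At 24 h under compound 16, MANBA (0.43 ± 0.11) and ASAH1 (0.38 ± 0.08) rose and CTSV fell for lack of serine (background 1.85% higher and 2.54% lower). Among genes at or above the median signal 3.28% rose and 4.75% fell, so 3 calls in 39 members were near that share. MANBA's other probe set gave 0.07. CTSV had 6.66, 6.88 and 7.14 without serine, against 7.81, 7.91 and 7.97 with serine. The gap between the groups was wider than either group's range. CTSV was 2.01-fold lower without serine (log2 difference -1.01 ± 0.11, adjusted p = 3.49e-08), the largest effect of serine lack on any member in the 6 comparisons run, and its 2 other probe sets gave -1.02 and -0.92.

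**Figure D3:**
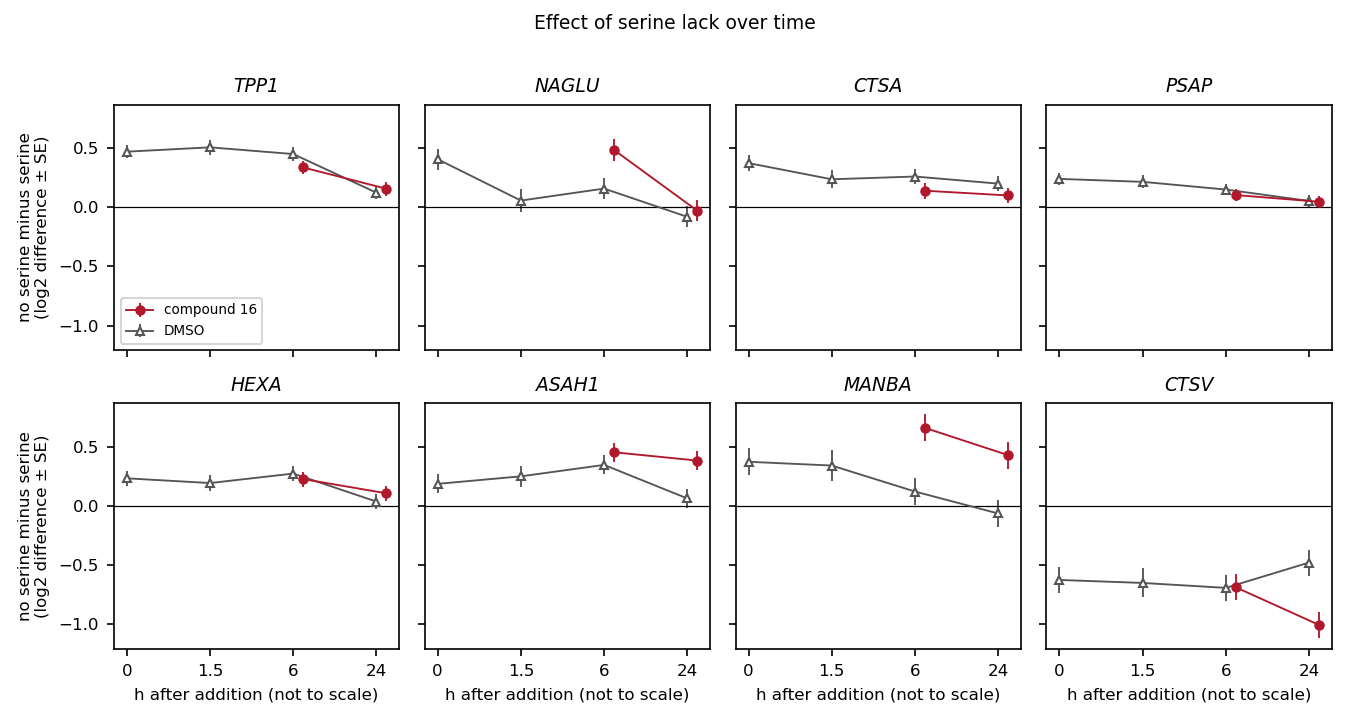
Effect of serine lack (medium without minus medium with serine, log2 difference ± SE) on 8 members by time after addition of compound 16 (filled circles, 6 and 24 h) or DMSO (open triangles, 4 times, axis not to scale). TPP1 stays near 0.5 to 6 h in DMSO and is at 0.12 at 24 h, MANBA and ASAH1 have higher points under compound 16 (difference not tested), and CTSV lies below zero throughout, lowest at -1.01.

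Fitted with the arrays of each comparison alone, the lack of serine in DMSO gave 0 members at 0 h, 0 at 1.5 h and 1 at 6 h, so those calls rest on the spread shared over the 17 groups. Within a time the title numbers run group by group, and an effect of that order cannot be told apart from medium or compound.

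The third comparison set compound 16 against DMSO within each medium. Without serine, 0 of the 39 members passed at 0, 1.5 and 6 h in limma (background 0%, 0.0822% and 2.72% in either direction, with 0.0768% higher and 0.00548% lower at 1.5 h and 1.49% higher and 1.23% lower at 6 h). An unadjusted p under 0.05 was found for 1, 1 and 9. These background shares are for adjusted p, and the share of all genes at the unadjusted threshold was not computed. The smallest adjusted p at 6 h was 0.0662, for SCARB2 at 0.15 ± 0.05. At 24 h 3 rose and 2 fell (background 2.97% higher and 4.08% lower, 7.06% in all), and 34 did not pass. Among genes at or above the median signal 5.31% rose and 7.52% fell.

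Acid ceramidase ASAH1, which splits ceramide into sphingosine and fatty acid, had 11.34, 11.44 and 11.50 with compound 16 without serine at 24 h, against 10.85, 10.90 and 10.90 with DMSO. The groups were separate. ASAH1 was 1.46-fold higher (0.54 ± 0.08, adjusted p = 4.98e-06), and its 4 other probe sets were higher by 0.38 to 0.47. With serine ASAH1 had 10.94, 10.98 and 11.21 with compound 16, against 10.72, 10.78 and 10.96 with DMSO, which overlapped (0.22 ± 0.08, adjusted p = 0.210).

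MANBA had 7.71, 7.86 and 7.90 with compound 16 without serine, against 7.16, 7.36 and 7.50 with DMSO, and rose by 0.48 ± 0.11 (adjusted p = 0.00403). Its other probe set gave 0.08. With serine MANBA had 7.31, 7.41 and 7.46 with compound 16, against 7.29, 7.44 and 7.48 with DMSO, a difference of -0.01 ± 0.11. The membrane glycoprotein LAMP2 had 10.37, 10.46 and 10.64 with compound 16 without serine, against 10.14, 10.28 and 10.36 with DMSO. The groups were 0.01 apart, LAMP2 rose by 0.23 ± 0.07 (adjusted p = 0.0394), and of its 8 other probe sets 5 were higher, by up to 0.80, and 3 lower. The call for LAMP2 was lost in 4 of the 6 fits that left out 1 array (without the second or the third compound 16 array, or the first or the second DMSO array, by title number, with differences between 0.155 and 0.245), and that for MANBA without the last DMSO array by title number (0.39) and in the mean of its probe sets (0.28). Fitted with the arrays of this comparison alone, ASAH1 was the 1 member that passed.

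CTSV had 6.66, 6.88 and 7.14 with compound 16 without serine, against 7.38, 7.45 and 7.56 with DMSO. It was 1.48-fold lower (-0.57 ± 0.11, adjusted p = 0.000363), and its 2 other probe sets were lower by 0.63 and 0.73. With serine CTSV had 7.81, 7.91 and 7.97 with compound 16, against 7.90, 7.93 and 7.99 with DMSO, a difference of -0.04 ± 0.11 that did not pass. GLA had 12.04, 12.04 and 12.05 with compound 16 without serine, against 12.27, 12.27 and 12.38 with DMSO. It fell by 0.26 ± 0.05 (adjusted p = 0.000729), and with serine gave -0.12 ± 0.05.

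The cholesterol exporter NPC1 was not among the calls at 24 h. NPC1 had 7.28, 7.33 and 7.46 with compound 16 without serine, against 7.37, 7.67 and 7.95 with DMSO, and the arrays overlapped. CTSD gave 0.16 ± 0.12, LAMP1 0.05 ± 0.05 and TFEB -0.02 ± 0.15 without serine, and 0.02 ± 0.12, 0.06 ± 0.05 and -0.02 ± 0.15 with serine. The 3 pump subunits lay between -0.12 and 0.10 without serine. With serine 0 members passed at 0, 1.5, 6 or 24 h (background 0% at the first 3 times, and 0.746% higher and 0.620% lower at 24 h, 1.37% in all). An unadjusted p under 0.05 was found for 2, 1, 5 and 6, and the share of all genes with one was not computed. The member with the smallest adjusted p at 24 h was CTNS (0.31 ± 0.10, adjusted p = 0.119).

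**Figure D4:**
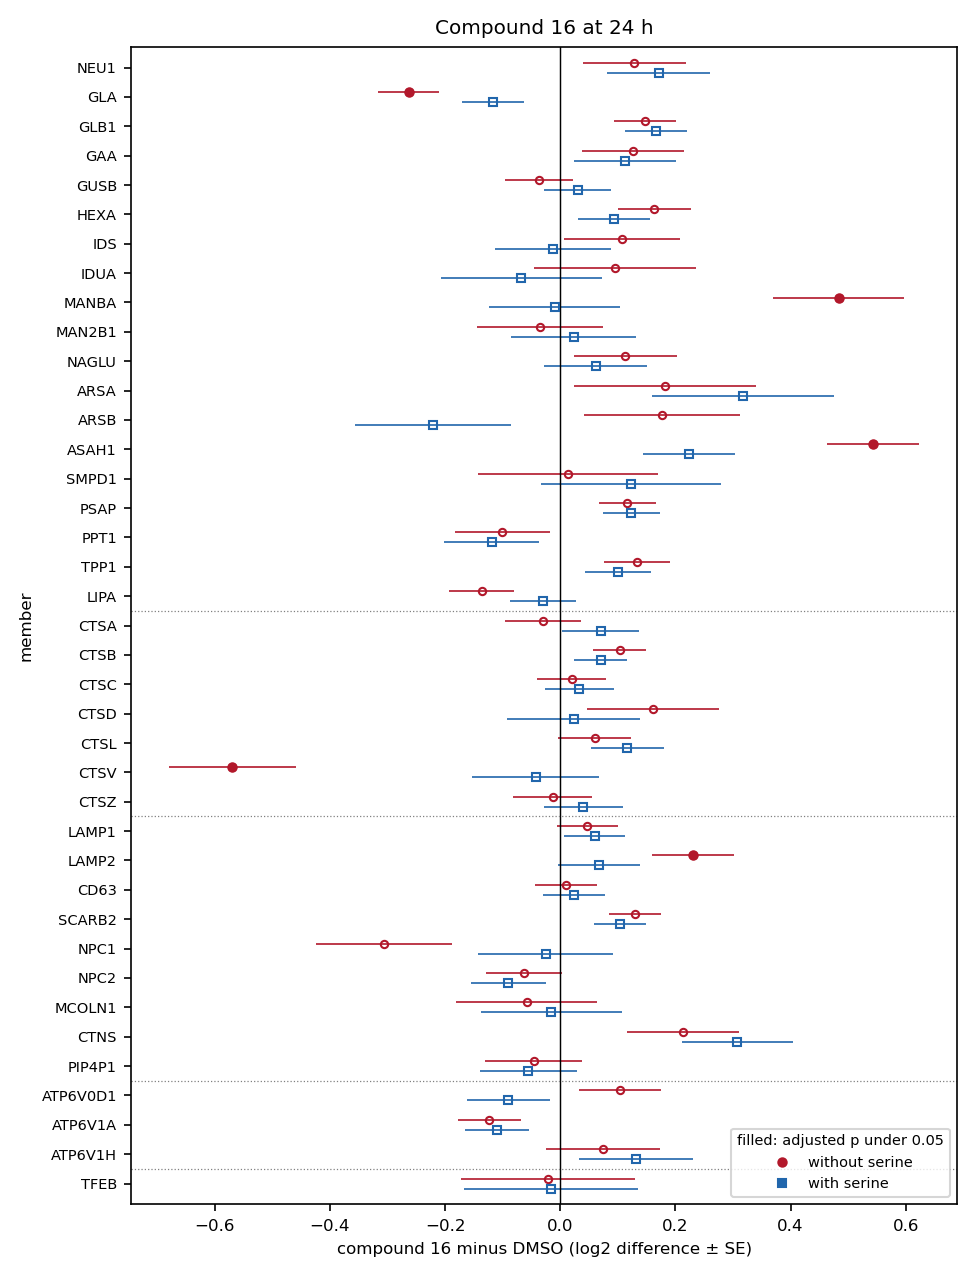
Log2 difference (± SE) between compound 16 and DMSO at 24 h for each member, with circles for medium without serine, squares for medium with serine and filled symbols for an adjusted p under 0.05. ASAH1, MANBA and LAMP2 are filled on the right (0.54, 0.48 and 0.23), CTSV and GLA on the left (-0.57 and -0.26), and no square is filled.

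The difference between the effects of compound 16 in the 2 media, tested directly, was past the threshold for 0 members at 0, 1.5, 6 and 24 h (background 0%, 0.0164%, 0.899% and 1.28%). At 24 h 4 members had an unadjusted p under 0.05, and the share of all genes with one was not computed. The effect without serine minus that with serine was -0.53 for CTSV (95% interval -0.84 to -0.21, adjusted p = 0.0963), 0.49 for MANBA (0.17 to 0.82, adjusted p = 0.155) and 0.32 for ASAH1 (0.09 to 0.55, adjusted p = 0.206). The calls in the medium without serine alone are therefore not shown to be particular to it.

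The last comparison set 24 h against 0 h in DMSO. Without serine 3 members rose and 8 fell (background 7.97% higher and 17.5% lower), and with serine 7 rose and 3 fell (5.84% and 14.8%). Among genes at or above the median signal, 11% rose and 30.1% fell without serine, and 7.71% rose and 25.3% fell with serine. The members' counts changed with the scaling. Centring the arrays moved the median difference of all genes to 0.15 without and 0.18 with serine, against -0.04 and -0.03 as deposited. The members' calls moved to 12 higher and 2 lower without serine, and 26 higher and 1 lower with serine. Of the 18239 genes, 5832 were called after centring without serine (82.8% of them higher) and 6519 with serine (88.6% of them higher). Much of the shift in the members' counts was therefore shared with all genes. Title numbers lie in blocks by time, so an effect of that order and time cannot be told apart.

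NPC1 had the largest difference over time. It had 7.37, 7.67 and 7.95 at 24 h without serine, against 8.15, 8.29 and 8.32 at 0 h, and 7.50, 7.59 and 7.73 at 24 h with serine, against 8.27, 8.35 and 8.38 at 0 h. NPC1 fell by 0.59 ± 0.12 and 0.73 ± 0.12 (adjusted p = 0.000244 and 2.04e-05), but its other probe set, with a mean of 5.63, gave 0.06 with serine. LIPA fell by 0.28 ± 0.06 and 0.22 ± 0.06, and NPC2 rose by 0.19 ± 0.07 and 0.30 ± 0.07 and CTSC by 0.23 ± 0.06 and 0.35 ± 0.06, without and with serine. CTNS (-0.44), TPP1 (-0.31), NAGLU (-0.28), PIP4P1 (-0.26), PSAP (-0.25) and LAMP1 (-0.20) fell and GLA (0.31) rose without serine. CTSB (0.16), HEXA (0.17), CTSL (0.19), CD63 (0.21) and the sulfatase ARSB (0.38) rose and ARSA (-0.43) fell with serine. Among the called members with several probe sets, some probe set went the other way for 4 of 9 without serine and 7 of 9 with serine. HEXA's others ranged between -0.67 and 0.89 with serine, ARSA's between -0.23 and 0.17, and ARSB's between -0.01 and 0.08.

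**Figure D5:**
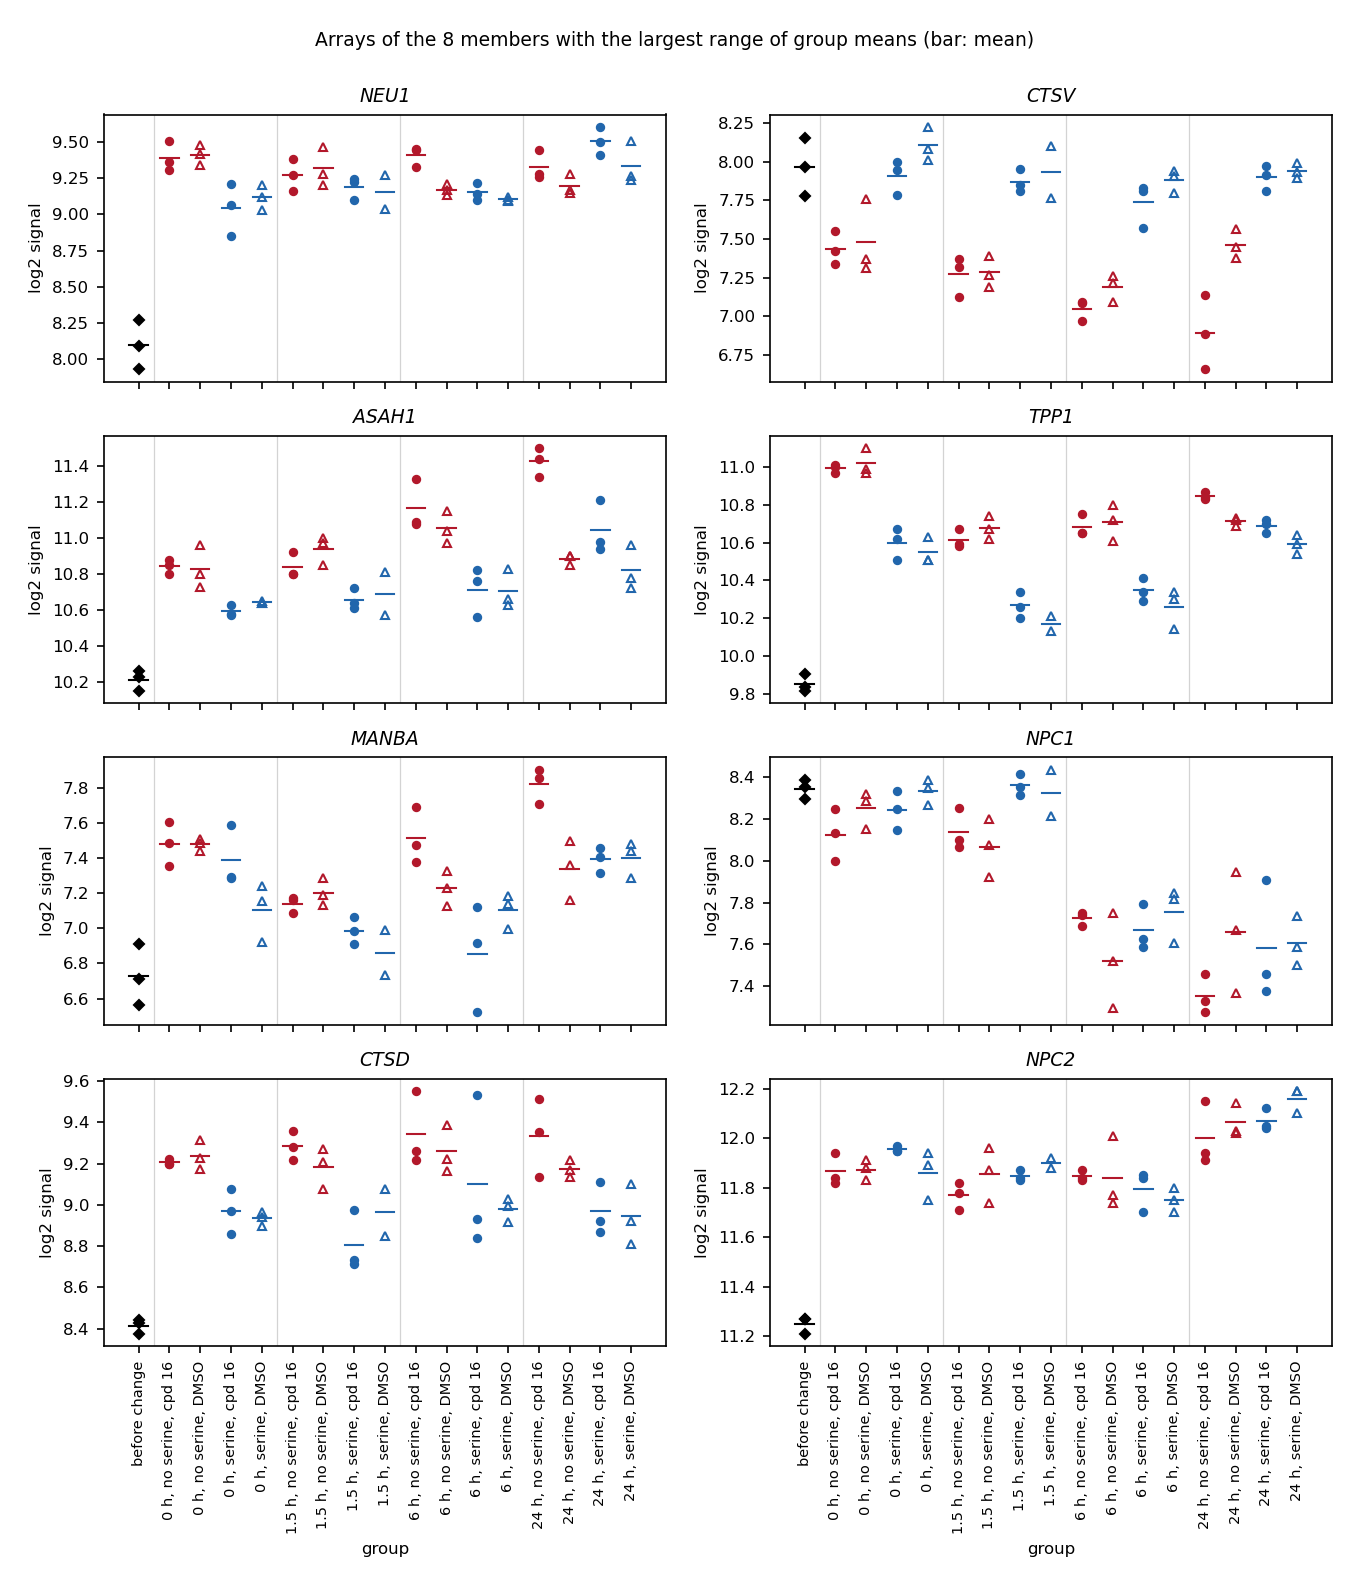
Log2 signals of single arrays (points) and group means (bars) for the 8 members with the widest span of group means, over the 17 groups in order of time (black diamonds before the change, red without serine, blue with serine, filled circles compound 16, open triangles DMSO). The NEU1, ASAH1, TPP1, CTSD and NPC2 panels have their lowest points before the change, CTSV separates by serine at every time, and NPC1 is lower at 6 and 24 h.

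Other lysosomal genes, given by 84 measured members of 5 lists, are set beside the 39. After the change of medium 43 of 84 rose and 4 fell without serine (16.0% and 12.6% of all genes) and 35 rose and 2 fell with serine (12.3% and 9.46%). Their median differences were 0.23 and 0.20, against 0.01 over all genes in each medium. Of 21 other hydrolases 11 rose and 1 fell without serine, with the asparaginyl protease LGMN at 0.70 ± 0.06 and the alpha-fucosidase FUCA1 at 0.63 ± 0.08. Of 22 other membrane proteins 11 rose and 1 fell, with the sialic acid exporter SLC17A5 at 0.91 ± 0.08 and the cation channel TPCN1 at 0.72 ± 0.06. Of 13 other pump subunits 8 rose and 0 fell, with the accessory subunit ATP6AP1 at 0.47 ± 0.07. Of 11 genes that deliver hydrolases 5 rose and 2 fell, with GNPTG, a subunit of the enzyme that makes the mannose 6-phosphate tag, at 0.72 ± 0.07 and the receptor IGF2R at 0.41 ± 0.08.

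Of 17 genes of the TFEB family and its regulation 8 rose and 0 fell without serine. The Rag GTPase RRAGD, which signals amino acid supply to mTORC1, was highest at 1.25 ± 0.12 without and 0.58 ± 0.12 with serine, and RRAGC gave 0.55 ± 0.07 and 0.46 ± 0.07. FNIP1, a partner of folliculin, rose by 0.72 ± 0.11 and 0.71 ± 0.11 and folliculin itself, FLCN, by 0.51 ± 0.13 and 0.69 ± 0.13. TFEB's relatives TFE3 (0.43 ± 0.18 and 0.11 ± 0.18) and MITF (0.21 ± 0.16 and -0.09 ± 0.16) did not pass. For lack of serine at 0 h in DMSO 6 of the 84 rose and 1 fell (2.99% and 2.92% of all genes), among them RRAGD (0.67 ± 0.12), GNPTG (0.42 ± 0.07) and LGMN (0.37 ± 0.06). For compound 16 at 24 h 4 of the 84 rose and 1 fell without serine (2.97% and 4.08% of all genes), among them RRAGD (0.54 ± 0.12) and the nuclease DNASE2 (0.36 ± 0.07), with GGH, which trims folates, at -0.36 ± 0.08. With serine 1 rose (0.746% of all genes), the transporter MFSD8 (0.42 ± 0.10).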

How the data were processed

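Biotin-labelled total RNA from A549 cells was hybridised to 50 Affymetrix HG-U219 arrays. The authors deposited log2 signals per probe set. RMA made them, per the submitters' processing notes, which also name limma. Versions were not given in the sources used here. RMA corrects background, normalizes between arrays and compresses changes of dim probe sets, and it removes a shift shared by all genes.

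Values were used as deposited. Of 49386 probe sets 45259 named 1 gene symbol by the platform annotation, and each of 18239 genes was represented by its brightest probe set on average. Gene symbols came from that annotation, and promoter windows came from RefSeq tables of GRCh38.p14. Some chosen probe sets (HEXA, IDS, ARSB and CD63) carry the suffix _x_at, with which Affymetrix marks probes that may match other transcripts too. Others, among them those of TPP1, ASAH1, MANBA, CTSA, CTSD, LIPA and PSAP, end in _s_at. Their match to other transcripts was not examined here.

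All 50 arrays were fitted together in limma 3.58.1 (R 4.3.3) with a mean per group, and eBayes gave 33 residual and 3.7 prior degrees of freedom. Calls are at an adjusted p under 0.05 (Benjamini-Hochberg over 18239 genes in each comparison). There were 22 comparisons, and 2 tests of a change in the effect of serine lack were added after seeing the data. The median SE over the members was 0.080 for 3 against 3 arrays, and the number of arrays limits the precision. Title numbers end each label, run through the series and are shared by no groups.

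The members, the lists and the tests were chosen with earlier results of these data known. Every called member was named, with TFEB, LAMP1, CTSD and GLA always given in the main comparisons, the 8 members with the widest span of group means given array by array, and up to 3 genes per other list.

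The fit was tested on simulated data. Alternatives were leaving out genes dimmer than the 40th percentile, quantile normalization, median centring, the mean of all probe sets, array weights, only the arrays of a comparison, and leaving out each array. The 1327 probe sets that name more than 1 symbol, and the 2800 with none, were not used here.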

Additional observations from a re-analysis of the deposited data

Results flagged for a closer look

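The effect of serine lack differed between times for 4 members, by tests added after seeing the data, in which 1 member was lower and 0 higher in DMSO (background 0.186% lower and 0.197% higher) and 3 lower and 0 higher under compound 16 (2.97% and 1.96%). For TPP1 in DMSO the effect at 24 h minus that at 0 h was -0.35 ± 0.08 (SE, limma adjusted p = 0.0391), the effects being 0.12 at 24 h and 0.47 at 0 h. Leaving out 1 array ended the TPP1 call in 10 of 12 fits, and the mean of its probe sets gave -0.11. Under compound 16 the effect at 24 h minus that at 6 h was -0.51 ± 0.13 for NAGLU (adjusted p = 0.0107), -0.43 ± 0.13 for NEU1 (adjusted p = 0.0369) and -0.23 ± 0.06 for CTSB (adjusted p = 0.0268). Without the array numbered 58 (compound 16 with serine, 6 h) NAGLU gave -0.43, NEU1 -0.40 and CTSB -0.22, and none of the 3 passed. Over the 12 fits that left out 1 array the call ended in 8 for NEU1, 4 for CTSB and 1 for NAGLU.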

How the results depend on the processing

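No paired analysis was possible because no groups share title numbers. The counts of called members were compared over 24 comparisons, giving 146 values besides those that leave out 1 array, of which 119 stayed within 1.5 times the main count. With only the arrays of a comparison the counts were 1 for compound 16 without serine at 24 h (main 5), 0, 0 and 1 for serine lack in DMSO at 0, 1.5 and 6 h (main 10, 4 and 5), 4 and 1 for serine lack under compound 16 at 6 and 24 h (main 13 and 3), 12 members on changing to medium with serine (main 22), 6 and 4 for 24 h minus 0 h without and with serine (main 11 and 10), and 0 and 0 for the added tests of time. That fit has fewer arrays for its spread. With dim genes left out, 2 members passed for compound 16 without serine at 6 h (main 0), 8 and 1 for serine lack in DMSO at 6 and 24 h, and 2 and 6 for the added tests. Centring gave 2 and 1 for serine lack in DMSO at 1.5 and 24 h, 5 under compound 16 at 24 h, 27 for 24 h minus 0 h with serine and 1 for the added test under compound 16. The mean of all probe sets gave 8 and 4 for compound 16 at 24 h without and with serine, 1 for the 24 h effect of compound 16 compared between media and 1 for serine lack in DMSO at 24 h. Array weights gave 3 for compound 16 without serine at 6 h and 5 for the added test under compound 16. In the mean of all probe sets ATP6V1A changed sign for the change of medium, to -0.27 without and -0.17 with serine, and SCARB2 with serine to -0.063. The cause was not tested.

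Leaving out each array in turn gave 26 to 28 members for the change of medium without serine and 17 to 22 with serine, 4 to 5 for compound 16 without serine at 24 h, 0 to 1 for the effect of compound 16 compared between media, both at 6 h and at 24 h, 5 to 9, 1 to 3 and 3 to 6 for serine lack in DMSO at 0, 1.5 and 6 h, 12 to 15 and 2 to 3 under compound 16 at 6 and 24 h, 9 to 12 and 5 to 9 for 24 h minus 0 h without and with serine, and 0 to 2 and 0 to 3 for the added tests. All other compound 16 counts, and serine lack in DMSO at 24 h, were 0 to 0. By title number, counts moved by over 1.5 times without arrays 15 (6), 19 (6) and 21 (5) for serine lack in DMSO at 0 h, 49 (2), 50 (1), 54 (2) and 55 (2) at 1.5 h, and 62, 66 and 67 (3 each) at 6 h. They also did so without 15 (5) and 97 (6) for 24 h minus 0 h with serine, 57 (1) and 100 (1) for the compared effects of compound 16 at 6 and 24 h, and 58 (0), 65 (1) and 100 (1) for the added test under compound 16. In DMSO the added test kept its count of 1 without array 15, gave 2 without 98 and 0 without each of the other 10.

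Centring moved the share of called genes that were higher by over 10 percentage points for compound 16 at 24 h (53.1% without serine, main 42.1%, and 36.8% with serine, main 54.6%), the difference between media at 24 h (49.3%, main 29.9%), serine lack in DMSO at 1.5, 6 and 24 h (17.3%, 44.2% and 28.6%, main 53.1%, 55% and 55.2%) and under compound 16 at 6 and 24 h (39.4% and 58.2%, main 52.9% and 42.1%), the added tests (38.6% and 67.9%, main 51.4% and 39.8%), and 24 h minus 0 h (82.8% and 88.6%, main 31.3% and 28.3%, with quantile normalization 47.5% and 47.9%).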
